A study of Mus musculus with 15 samples.

Results

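Naive OT-I CD8+ T cells and OT-I cells taken 4 days after priming with antigen alone were compared across all expressed genes. The comparison used the 5 libraries labelled antigen-only (Ag) and the 5 labelled naive (Naive), 10 of the 15 libraries of the series, chosen by their labels and not by any measured value. The other 5 libraries, from cells that also received agonist antibodies to OX40 and 4-1BB (Ag+Costim), entered the model only for the shared estimate of spread. OT-I cells carry a transgenic T cell receptor for the SIINFEKL peptide of ovalbumin, and per the labels all libraries are CD8+ T cells of OT-1 Tg C57BL/6J mice, from spleen and lymph nodes.

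Both groups share the receptor transgene and, per the study's methods, a Rag1 or Rag2 deletion in the OT-I donors, which were adult mice of both sexes. Ag cells were transferred into wild-type C57BL6/J hosts, whose own lymphocytes remained, and the hosts were injected with SIINFEKL peptide and rat IgG. They were recovered by sorting for CD8, the congenic marker and the transgenic receptor chains. The labels put the collection at day 4 and the methods at 3 days and 12 hours. Naive cells were purified from OT-I mice that had received no transfer. Antigen therefore cannot be told apart from transfer, the wild-type host, the IgG, the sort and the sequencing lane, since all Ag libraries were on lane 2 and all Naive libraries on lane 3.

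A naive CD8+ T cell is a small resting cell that circulates between blood and lymphoid organs, held alive by interleukin 7 and by weak receptor signals and kept quiet by factors such as KLF2, TCF1, LEF1 and FOXO1. Recognition of peptide on MHC class I drives growth, division and the acquisition of cytokines and cytotoxic granules. Antigen met without costimulatory signals is known for a shorter or weaker effector response and for the expression of genes linked with unresponsiveness, such as those for inhibitory receptors and the surface proteins neuritin and FR4.

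Total counts per library ran from 4865952 in Ag 3 to 18004241 in Ag 5, and from 12112839 to 25280667 in Naive. Gene levels are given in CPM, a gene's counts divided by the library total and brought to a common size after TMM scaling. They compare a gene between libraries, not 1 gene with another. Two-sided tests were edgeR's quasi-likelihood test with Benjamini-Hochberg adjustment over all genes tested, and a gene was called at an adjusted p under 0.05. All such p-values rest, for each gene, on 1 estimate of spread shared by all 15 libraries, not on the spread of Ag and Naive alone. Ag+Costim libraries could be much closer together: the mean log2(CPM + 1) of mitosis genes had an SD of 0.105 there, 1.31 in Ag and 1.75 in Naive. Defining transcripts of CD8+ T cells were present in every library: the 8 markers (Cd8a, Cd8b1, the CD3 chains and the receptor constant regions) summed to 6736 to 13809.7 CPM in Ag and 7962 to 12176 CPM in Naive, and 0 of 8 were called by edgeR (1 at an unadjusted p under 0.05, 1 by DESeq2).

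Ag 3 and Naive 5 stood apart. In Ag 3, 16.9% of sequenced reads were counted against 37.4% to 53.6% in the other Ag libraries. There the predicted gene Gm10800 took 3.10% of counts against at most 0.0573% elsewhere, and 67.4% of receptor alpha variable segment counts were of the transgenic Trav14 family. Naive 5 had a mitosis gene level within the range of Ag and the highest neutrophil transcripts, with S100a8 at 433 CPM. Ag libraries also differed among themselves in the amount of input recorded (10, 1.4, 9.4, 10 and 1.8 in Ag 1 to 5, no unit given). The percent of reads in the core's column headed RiP was 43.8, 72.3, 15.4, 55.0 and 78.3 in the same order. The first principal component of log2 CPM, the main axis of variation over all 15 libraries, held 53.3% of the variance. On it Ag 2 and Ag 5 lay at 87.8 and 109, near Ag+Costim (67.8 to 92.1). Ag 1, Ag 3 and Ag 4 lay at -75.7, -69.4 and -56.8, and Naive 1 to 5 at -103, -74.3, -86.8, -113 and 2.03.

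Of 17366 genes tested, 1165 (6.71%) were called. In Ag, 529 genes (3.05%) were higher and 636 (3.66%) lower, with a median log2 fold change of 0.08 over all genes. The CPM of Ag and Naive did not overlap for 668 genes (3.85%), of which 522 were also called. A smaller set of 213 genes (1.23%), 77 higher and 136 lower, stayed past the threshold in each of the 10 fits that left out 1 Ag or Naive library. A gene of that set is here said to be called in all 10 fits. Without Naive 5 the calls rose to 3871 of 17981 genes (21.5%), and without Naive 1, Naive 3 or Naive 4 they fell to 255, 267 and 273. With a lane term 0 genes were called by edgeR (1285 at an unadjusted p under 0.05). Only the Ag+Costim libraries were on both lanes, so the lane term rests on them alone. The 0 calls therefore cannot tell lane from antigen. With only the 10 libraries in the fit 6 were called, all lower in Ag (2899 at an unadjusted p under 0.05), whereas DESeq2 on the 15 libraries called 2778.

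In bulk samples such as these, fewer cells of a type and less RNA per cell cannot be told apart. The genes with the deepest losses were a pair of neighbours on chromosome 7, Cd163l1 (chr7:140218267-140231145, GRCm38) and 5830411N06Rik (chr7:140247284-140300736), which encode scavenger receptor proteins known from gamma-delta T cells. 5830411N06Rik was at 3.62, 3.31, 5.01, 3.22 and 2.63 CPM in Ag 1 to 5 and at 181, 63.7, 149, 253 and 21.2 CPM in Naive 1 to 5, a log2 fold change of -5.26 ± 0.54 (SE, adjusted p = 0.00126). Cd163l1 was at 4.31, 2.82, 8.49, 2.86 and 3.26 CPM in Ag and at 92.1, 42.9, 61.0, 105 and 23.7 CPM in Naive, a log2 fold change of -3.97 ± 0.42 (SE, adjusted p = 0.00126). Neither gene's groups overlapped, Naive 5 was the lowest Naive library for both, and both were called in all 10 fits.

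Other genes of the gamma and delta receptor loci fell alongside. Trdc, the delta chain constant region, was at 101, 99.0, 84.7, 126 and 113 CPM in Ag and at 316, 257, 321, 338 and 141 CPM in Naive, a log2 fold change of -1.39 ± 0.21 (SE, adjusted p = 0.00614). Tcrg-C1, a gamma chain constant region, changed by -3.57 ± 0.53, and Trdj1, a delta joining segment, by -3.27 ± 0.40. All 3 were called in all 10 fits without overlap. In the list of 10 gamma-delta T cell markers 4 fell and 0 rose, against 3.66% of all genes called lower. The median was -1.45, and 8 had a negative log2 fold change. At an unadjusted p under 0.05 there were 7, and DESeq2 called 5 and voom 7, all lower. The summed CPM of the list was 118 to 163 in Ag and 216 to 776 in Naive. Sox13 and Zbtb16, which also define such cells, were not called. Sox13 was at 2.15, 0, 3.05, 2.65 and 0 CPM in Ag and at 11.4, 4.65, 9.70, 14.4 and 0.598 CPM in Naive. It was higher in Naive 1 to 4 than in every Ag library. Zbtb16 was at most at 4.14 CPM in any of the 10 libraries. The OT-I donors carried, per the study's methods, a Rag1 or Rag2 deletion, and both are needed to rearrange receptor genes. The part of gamma-delta T cells in these losses was not tested.

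**Figure D1:**
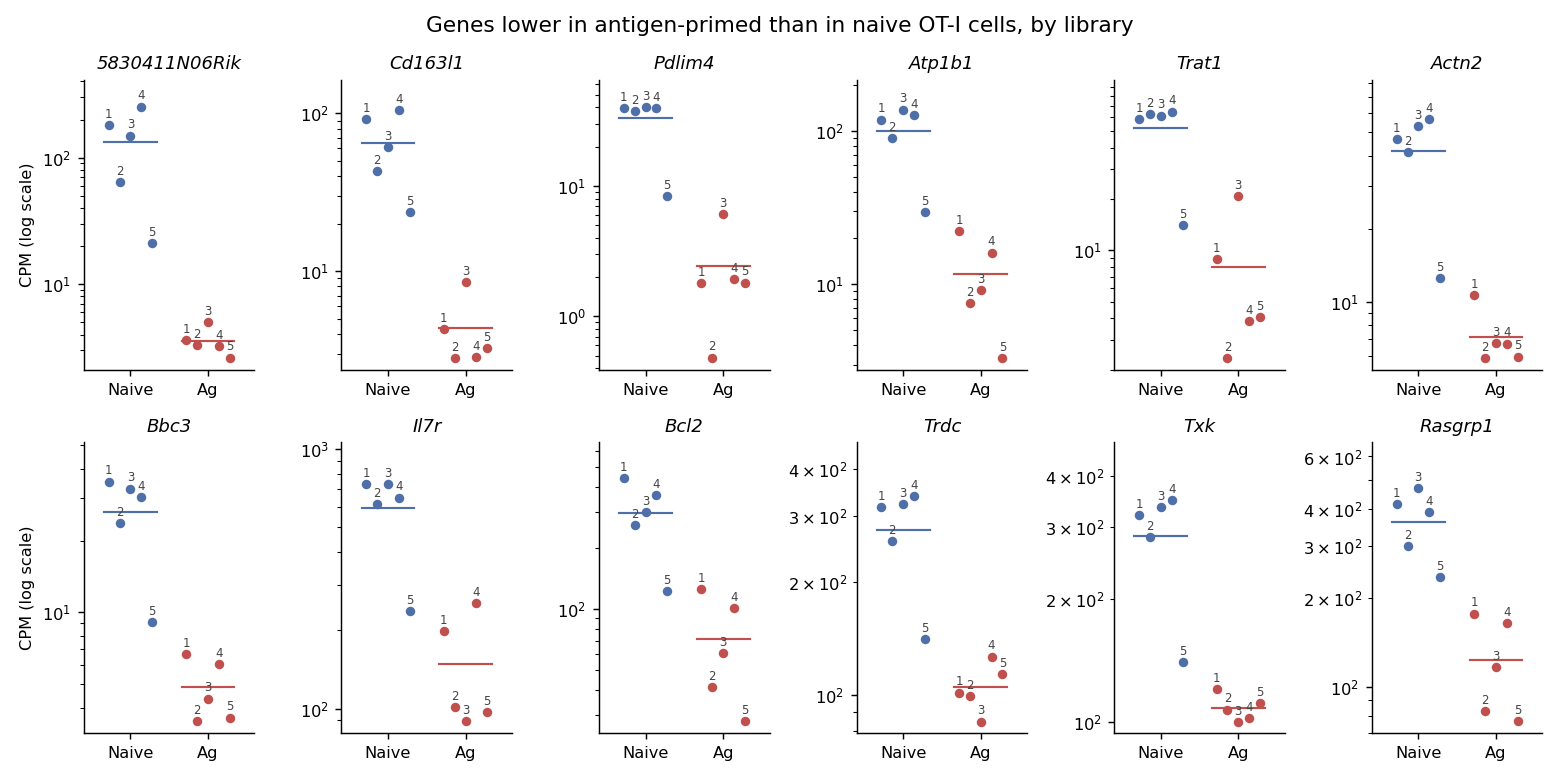
CPM of 12 genes that fell in antigen-primed cells, by library, on log axes; each point is 1 library, labelled by its replicate number, and the line is the group mean. Ag points lie below Naive points, except for 1 Ag library above Naive 5 for Trat1, Il7r and Bcl2, and Naive 5 is the lowest Naive point, for example at 21.2 CPM for 5830411N06Rik and 237 CPM for Il7r.

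Part of the genes of the naive and quiescent state fell. In the list of 24 such genes 9 fell (Ccr9, Igfbp4, Tsc22d3, Il7r, Satb1, Klf3, Lef1, S1pr1 and Klf2) and 0 rose, against 3.66% of all genes called lower, with a median log2 fold change of -1.03. Il7r, the interleukin 7 receptor that carries the survival signal of resting T cells, was at 199, 101, 89.5, 256 and 97.2 CPM in Ag and 731, 616, 734, 649 and 237 CPM in Naive, a log2 fold change of -1.996 ± 0.34 (SE, adjusted p = 0.00874). The highest Ag library, Ag 4, exceeded Naive 5 but no other Naive library. Tsc22d3, which encodes the glucocorticoid-induced leucine zipper GILZ, was at 169, 71.0, 79.7, 275 and 70.8 CPM in Ag and 618, 596, 817, 659.9 and 204 CPM in Naive, a log2 fold change of -2.12 ± 0.43 (SE, adjusted p = 0.0151). Satb1, a chromatin organiser of T cells, changed by -1.92 ± 0.33 and Klf3, a relative of KLF2, by -1.65 ± 0.24, both without overlap.

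Among the homing genes of the list some fell. S1pr1, the receptor for exit from lymphoid organs, fell by 0.98 on the log2 scale and Klf2, the factor that drives it, by 0.87. Ccr9, a gut homing receptor, was at 55.3, 2.62, 19.6, 15.2 and 0.626 CPM in Ag and 273, 159, 315, 321 and 36.3 CPM in Naive, a log2 fold change of -3.57 ± 0.88 (SE, adjusted p = 0.0297). Ccr7, a receptor for entry into lymph nodes, did not pass the test, with a log2 fold change of -0.94 ± 0.31. Tcf7, which encodes TCF1, was at 786, 323, 273, 806 and 307 CPM in Ag and 961, 828, 1167, 867 and 564 CPM in Naive, a log2 fold change of -0.81 ± 0.32 (SE, adjusted p = 0.12), with Ag 2, Ag 3 and Ag 5 below every Naive library. The call of S1pr1 was lost without Ag 2, Naive 1 or Naive 3, that of Klf2 without Naive 1 and that of Ccr9 without Ag 2, Naive 1, Naive 3 or Naive 4, with adjusted p up to 0.0628, 0.0507 and 0.0772. Over the list, the number of genes called lower ran from 4 without Naive 1 to 15 without Ag 4 or without Naive 5.

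Bcl2 and Bbc3, with opposite roles in survival, fell together. Bcl2, the anti-apoptotic protein maintained by interleukin 7, was at 126, 41.3, 60.5, 101 and 28.2 CPM in Ag and 443, 258, 299.7, 363 and 123 CPM in Naive, a log2 fold change of -2.06 ± 0.41 (SE, adjusted p = 0.0145). Bbc3, which encodes the pro-apoptotic BH3 protein PUMA, was at 6.72, 3.51, 4.36, 6.09 and 3.63 CPM in Ag and 35.3, 23.7, 33.0, 30.4 and 9.11 CPM in Naive, a log2 fold change of -2.43 ± 0.32 (SE, adjusted p = 0.00399). Bbc3 did not overlap between groups, while Bcl2 in Ag 1 slightly exceeded Naive 5, and both were called in all 10 fits. Bcl2a1b, a pro-survival relative of BCL2 induced by receptor signals, rose, from 8.84, 33.4, 7.94, 8.48 and 47.9 CPM in Naive 1 to 5 to 61.8, 102, 71.4, 74.5 and 122 CPM in Ag 1 to 5, a log2 fold change of 2.02 ± 0.46 (SE, adjusted p = 0.0216). It shares near-identical copies with other Bcl2a1 genes, so its short reads may be split between them. Its call was lost without Naive 1, Naive 3 or Naive 4 (adjusted p up to 0.0637). The other 13 genes of the survival and death list were not called, among them Mcl1 (-0.42 ± 0.23) and Bcl2l11, the gene of BIM (0.06 ± 0.46).

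Receptors for cytokines moved in both directions. Of 18 genes, 5 fell (Ifngr2, Il4ra, Tgfbr1, Tgfbr2 and Il21r) and 2 rose (Il2rb and Il18r1), with a median of -0.07. Over all genes 3.66% were called lower and 3.05% higher. Ifngr2, the signalling chain of the interferon gamma receptor, was at 13.2, 3.24, 10.5, 5.73 and 3.07 CPM in Ag and 42.5, 30.2, 57.5, 46.8 and 10.7 CPM in Naive, a log2 fold change of -2.42 ± 0.47 (SE, adjusted p = 0.0135), and Il4ra, the interleukin 4 receptor chain, changed by -1.52 ± 0.29. Both were called in all 10 fits. The transforming growth factor beta receptor genes followed with -1.03 ± 0.25 for Tgfbr1 and -0.90 ± 0.22 for Tgfbr2, and Tgfbr3, a co-receptor outside the list, with -2.63 ± 0.52. Il2rb, shared by the interleukin 2 and interleukin 15 receptors, rose by 0.77 ± 0.21 (SE), from 429.8, 513, 452, 399.8 and 1016 CPM in Naive 1 to 5, where Naive 5 reached the level of Ag (809 to 1028 CPM). Without Ag 2, Ag 5, Naive 1, Naive 3 or Naive 4 the calls of Il2rb and Tgfbr2 were lost, that of Il2rb also without Ag 3, Ag 4 or Naive 2, and that of Tgfbr1 without Naive 1, Naive 3 or Naive 4 (adjusted p up to 0.134, 0.0822 and 0.0807). The list had 2 to 5 genes lower and 0 to 5 higher over the fits that left out 1 library, with the fewest lower without Naive 1, Naive 3 or Naive 4.

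Genes that carry the T cell receptor signal fell in part. Among 25 genes of the pathway 7 fell and 0 rose, against 3.66% of all genes called lower, with a median of -0.23. Among the fallers were Rasgrp1, which couples the receptor to RAS, the Tec family kinases Txk and Tec, the paracaspase gene Malt1, the CSK adaptor Pag1 and Themis. Rasgrp1 was at 177, 82.7, 116, 165 and 76.6 CPM in Ag and 415, 299.5, 470.1, 389 and 234 CPM in Naive, a log2 fold change of -1.55 ± 0.25 (SE, adjusted p = 0.00749). Txk was at 121, 107, 100.2, 102 and 111 CPM in Ag and 322, 284, 336, 349.8 and 140.1 CPM in Naive, a log2 fold change of -1.40 ± 0.21 (SE, adjusted p = 0.00614). Neither gene's CPM overlapped between groups and, with Malt1 and Tec, both were called in all 10 fits. The receptor chains and the proximal kinases were not called: Cd3e changed by -0.11 ± 0.20, Lck by 0.10 ± 0.11 and Zap70 by 0.15 ± 0.12. The number of genes called lower was 5 without Ag 2, Ag 5, Naive 1, Naive 3 or Naive 4, and 10 without Naive 5. Of 14 costimulatory receptor and TRAF genes, Icos (0.96 ± 0.19) and Cd28 (0.58 ± 0.15) rose and Traf6 fell (-0.81 ± 0.16). Over all genes 3.05% were called higher. Icos and Traf6 were called in all 10 fits, while Cd28 lost its call without Ag 2, Naive 1, Naive 3 or Naive 4 (adjusted p up to 0.128).

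Trat1, which encodes a transmembrane adaptor of the receptor complex, fell in level and changed in its estimated transcript shares. The gene (chr16:48730774-48772021, minus strand) was at 8.87, 2.34, 20.7, 3.87 and 4.07 CPM in Ag and 58.7, 62.8, 61.5, 65.0 and 14.0 CPM in Naive, a log2 fold change of -2.79 ± 0.57 (SE, adjusted p = 0.0152), and Ag 3 was the only Ag library above Naive 5. Its transcripts Trat1-202 and Trat1-201 differ by a 37-base exon (chr16:48754249-48754285, GRCm38), whose length is no multiple of 3. They also differ at their ends, with Trat1-202 at chr16:48730774-48772021 and Trat1-201 at chr16:48734690-48771956. The sequences of GENCODE M21 around this exon are given because a read over them tells the transcripts apart, although reads at the ends can as well. Capitals mark the exon in Trat1-202, and in Trat1-201 the first bases of the next exon (chr16:48742199-48742260), which there follows directly.
Trat1-202: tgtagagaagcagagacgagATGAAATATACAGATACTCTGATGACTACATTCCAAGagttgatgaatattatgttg
Trat1-201: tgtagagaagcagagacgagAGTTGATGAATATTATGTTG

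Trat1-201, annotated as a target of nonsense-mediated decay, held 0.210, 0.270, 0.198, 0.240 and 0.128 of the gene's estimated counts in Naive 1 to 5 and 0 in each Ag library. The gene had 103, 34, 95, 54 and 65 counts in Ag 1 to 5, so that 0 counts allow a share of up to 0.0291, 0.0882, 0.0316, 0.0556 and 0.0462 (counting error only). Each limit lay below the lowest Naive share, but it takes every count of the gene as able to tell its transcripts apart. Reads shared by both transcripts cannot, so a share within the Naive range is not excluded. The change of usage was called in the main fit (Simes-adjusted p = 0.00115) and in all 10 fits that left out 1 library.

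A few of the genes with the deepest losses belonged to no list. Pdlim4, a PDZ and LIM domain protein of the actin cytoskeleton, was at 1.81, 0.482, 6.10, 1.93 and 1.82 CPM in Ag and 39.6, 37.5, 40.2, 39.7 and 8.31 CPM in Naive, a log2 fold change of -3.90 ± 0.68 (SE, adjusted p = 0.00914). Atp1b1, a subunit of the sodium pump, was at 22.1, 7.51, 9.15, 16.1 and 3.32 CPM in Ag and 119, 89.7, 138, 128 and 29.5 CPM in Naive, a log2 fold change of -3.11 ± 0.47 (SE, adjusted p = 0.00614). Actn2, an alpha-actinin, was at 10.7, 5.86, 6.75, 6.73 and 5.95 CPM in Ag and 46.7, 41.3, 53.0, 56.5 and 12.5 CPM in Naive, a log2 fold change of -2.55 ± 0.32 (SE, adjusted p = 0.00319). Each was several times lower in every Ag library than in Naive 1 to 4, and Naive 5 lay between, above every Ag library. The adhesion receptor Adgrg5 (-2.71 ± 0.45), the adenosine monophosphate deaminase Ampd1 (-3.42 ± 0.63), Acoxl, a relative of the acyl-CoA oxidases (-3.23 ± 0.48), and Lrrc75b (-3.29 ± 0.65) were likewise called in all 10 fits without overlap.

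Besides B cell genes, given below with the markers of other cells, several genes rose and were called in all 10 fits that left out 1 library. Cd83, a surface protein induced on activated lymphocytes, was at 29.5, 10.96, 17.6, 37.1 and 19.0 CPM in Ag and 3.20, 6.31, 2.46, 2.36 and 8.38 CPM in Naive, a log2 fold change of 2.34 ± 0.42 (SE, adjusted p = 0.0106). Fut7, the fucosyltransferase that builds selectin ligands, was at 30.1, 11.3, 16.1, 38.9 and 19.8 CPM in Ag and 4.29, 9.62, 4.18, 4.79 and 8.91 CPM in Naive, a log2 fold change of 1.88 ± 0.37 (SE, adjusted p = 0.0136). Rgs1, a brake on chemokine receptor signals, was at 17.8, 25.5, 25.7, 30.0 and 27.4 CPM in Ag and 6.79, 8.20, 3.28, 5.28 and 14.7 CPM in Naive, a log2 fold change of 1.73 ± 0.31 (SE, adjusted p = 0.0106). In these 3 genes even the lowest Ag library exceeded every Naive library. The tetraspanin Cd9 (1.66 ± 0.31), the gamma-secretase subunit Psen2 (1.503 ± 0.29), Decr1 of fatty acid oxidation (1.43 ± 0.22), Mcub of the mitochondrial calcium uniporter (1.34 ± 0.26), the lipid-binding trafficking protein Unc119 (1.32 ± 0.23), Prr13 (1.26 ± 0.23) and the GTPase Gimap7 (0.99 ± 0.18) rose and were also called in all 10 fits, without overlap except for Mcub.

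**Figure D2:**
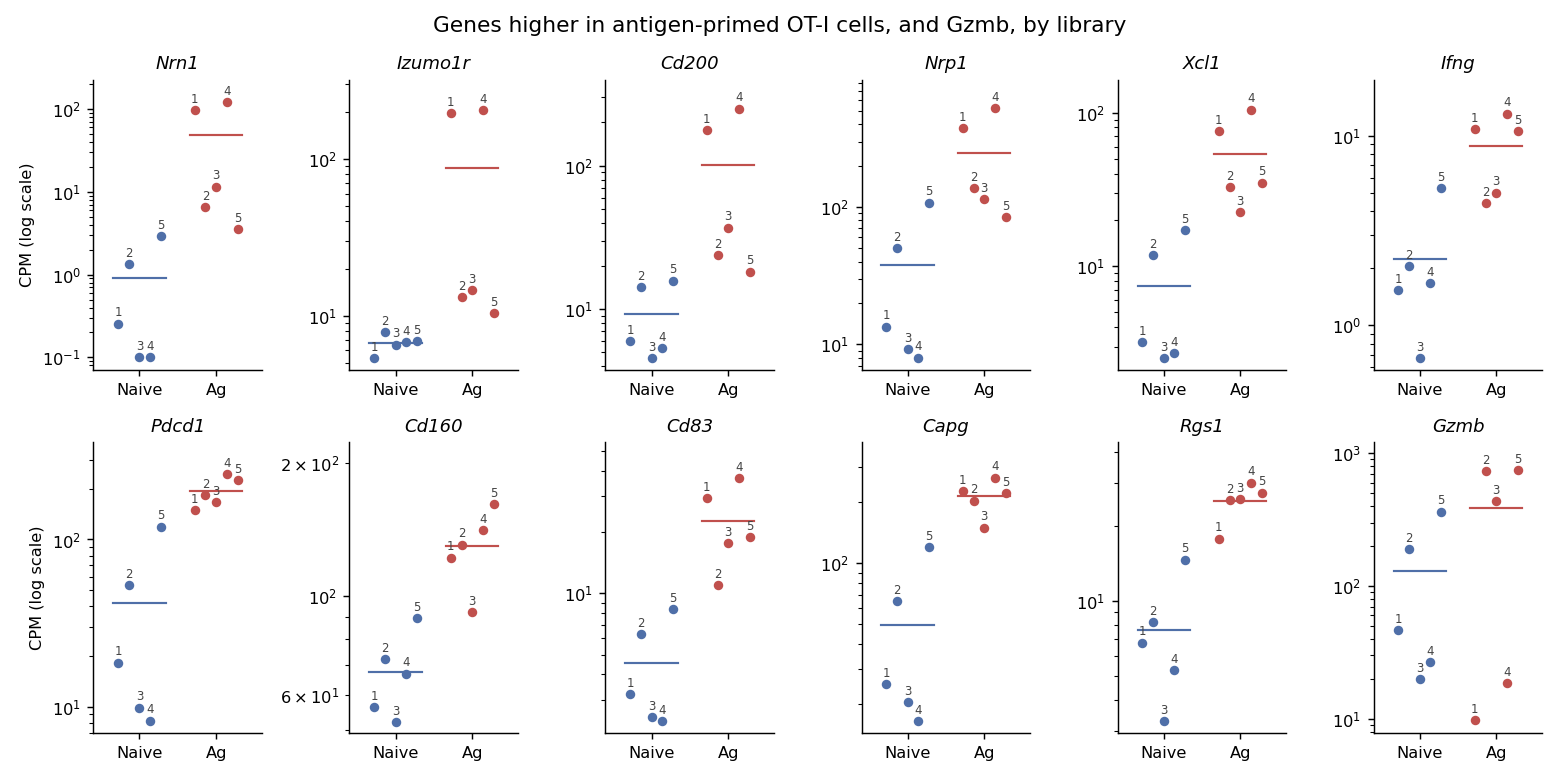
CPM of 12 genes by library on log axes, each point 1 library labelled by its replicate number and the line the group mean; the 0 CPM of Nrn1 in Naive 3 and Naive 4 is drawn at 0.1 CPM. Cd83, Rgs1 and Cd160 are higher in each Ag library than in any Naive library, Nrn1 and Izumo1r reach 96.9 to 206 CPM in Ag 1 and Ag 4 alone, and Gzmb, which did not pass the test, is at 9.73 and 18.5 CPM in those same libraries and at 435 to 745 CPM in the other Ag libraries.

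A few genes linked with T cell unresponsiveness rose, unevenly. In the list of 19 tolerance and early response genes 4 rose (Nrn1, Izumo1r, Nrp1 and Nr4a2), 1 fell (Dtx1) and the median was 0.07, close to that of all genes. The shares of all genes called were 3.05% higher and 3.66% lower. Nrn1, the gene of neuritin, was at 96.9, 6.55, 11.5, 121 and 3.57 CPM in Ag and 0.256, 1.34, 0, 0 and 2.92 CPM in Naive, a log2 fold change of 5.79 ± 1.27 (SE, adjusted p = 0.0188). Izumo1r, the gene of FR4, was at 196, 13.1, 14.6, 206 and 10.3 CPM in Ag and 5.38, 7.81, 6.53, 6.81 and 6.85 CPM in Naive, a log2 fold change of 3.72 ± 0.82 (SE, adjusted p = 0.0188). Every Ag library lay above every Naive library for both, but Ag 1 and Ag 4 were far above the other Ag libraries. Nrp1 (neuropilin 1) changed by 2.72 ± 0.72 and the orphan nuclear receptor Nr4a2 by 2.43 ± 0.55. In contrast the factors Egr2 (26.9, 3.86, 3.70, 37.9 and 0 CPM in Ag, 5.76, 8.60, 14.3, 13.5 and 4.65 CPM in Naive) and Nr4a1 (-0.81 ± 0.42) were not called, nor were the ubiquitin ligase genes Cblb and Itch. The calls of Nrn1, Izumo1r, Nr4a2 and Nrp1 were lost without Naive 1, Naive 3 or Naive 4, and that of Nrp1 also without Ag 2, Ag 4 or Naive 2 (adjusted p up to 0.0636, 0.0631, 0.0694 and 0.107). In Ag+Costim libraries Nrn1 ran from 1.72 to 8.86 CPM.

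Several inhibitory receptor genes rose as well. Of 13 genes 5 rose (Cd200, Lag3, Ctla4, Pdcd1 and Cd160) and 0 fell, with a median of 1.21, against 3.05% of all genes called higher. Cd160 was the steadiest, at 122, 131, 92.3, 141 and 161 CPM in Ag and 56.4, 72.4, 52.2, 67.0 and 89.5 CPM in Naive, a log2 fold change of 0.94 ± 0.17 (SE, adjusted p = 0.0106), and was called in all 10 fits. Pdcd1, the gene of PD-1, was at 149.8, 184, 167, 247 and 226 CPM in Ag and 18.4, 53.4, 9.88, 8.27 and 119 CPM in Naive, a log2 fold change of 2.22 ± 0.59 (SE, adjusted p = 0.0377). Cd200, the ligand of an inhibitory receptor on myeloid cells, was at 177, 23.9, 37.0, 250.1 and 18.3 CPM in Ag and 6.02, 14.3, 4.59, 5.35 and 15.8 CPM in Naive, a log2 fold change of 3.47 ± 0.70 (SE, adjusted p = 0.0151). Ag and Naive did not overlap for these 3 genes, with Naive 5 the highest Naive library each time. Ctla4 changed by 2.83 ± 0.75 and Lag3 by 2.93 ± 0.82. Cd200 was not called without Naive 1, Naive 3 or Naive 4, Ctla4 and Pdcd1 also without Ag 2, Ag 5 or Naive 2, and Lag3 in 2 of 10 fits, those without Ag 3 and without Naive 5 (adjusted p up to 0.0526, 0.109, 0.107 and 0.127). The list then had 1 to 7 genes called higher, fewest without Naive 1, Naive 3 or Naive 4 and most without Naive 5. Havcr2, the gene of TIM-3, was not called, at 1.72, 48.2, 45.1, 3.51 and 35.7 CPM in Ag and 4.10, 12.4, 1.23, 2.43 and 38.9 CPM in Naive.

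Some effector genes rose, among them chemokine and cytokine genes, and the granzyme genes did not pass. Of 19 effector molecules 5 rose (Xcl1, Ccl3, Ifng, Serpinb6b and Nkg7) and 1 fell (Ccl5), against 3.05% of all genes called higher and 3.66% lower. The median was 1.10. Xcl1, which attracts cross-presenting dendritic cells, was at 75.3, 32.7, 22.4, 104 and 35.0 CPM in Ag and 3.20, 11.8, 2.54, 2.71 and 17.1 CPM in Naive, a log2 fold change of 2.87 ± 0.59 (SE, adjusted p = 0.0153). Ifng, of interferon gamma, was at 10.8, 4.41, 5.01, 13.1 and 10.6 CPM in Ag and 1.54, 2.05, 0.671, 1.67 and 5.32 CPM in Naive, a log2 fold change of 1.98 ± 0.45 (SE, adjusted p = 0.0222), a rise from low levels in which Ag 2 and Ag 3 overlapped with Naive 5. The chemokine gene Ccl5 went the other way, at 60.4, 80.9, 93.0, 53.3 and 96.2 CPM in Ag and 200.1, 389, 115, 259 and 216 CPM in Naive, a log2 fold change of -1.62 ± 0.39 (SE, adjusted p = 0.0285), with no overlap. Gzmb, the gene of granzyme B, was at 9.73, 733, 435, 18.5 and 745 CPM in Ag and 46.3, 189, 19.9, 26.8 and 363 CPM in Naive, a log2 fold change of 1.59 ± 1.02 (SE, adjusted p = 0.296). Ag 1 and Ag 4 were below every Naive library for Gzmb and Ag 2, Ag 3 and Ag 5 above every one. Gzma (1.12 ± 0.81) and Gzmk (1.76 ± 1.10) had the same arrangement, apart from Gzmk in Ag 1 and Ag 4, which lay within the Naive range, and Prf1, of perforin, was even, at 75.1 to 95.9 CPM in Ag and 69.5 to 79.7 CPM in Naive. The call of Xcl1 was lost without Naive 1, those of Ifng and Ccl3 without Naive 1, Naive 3 or Naive 4, that of Serpinb6b in 7 of 10 fits and that of Ccl5 without Ag 2, Naive 1, Naive 2 or Naive 4 (adjusted p up to 0.052 for Xcl1, 0.0741 for Ifng, 0.0745 for Ccl3, 0.135 for Serpinb6b and 0.0764 for Ccl5). The list had from 0 genes called higher without Naive 1 to 7 without Naive 5.

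Genes of the cytoskeleton and of calcium-binding proteins rose together in part. Of 20 S100, annexin, galectin and cytoskeleton genes 7 rose (Capg, Anxa5, S100a10, S100a11, S100a13, Lsp1 and Anxa6) and 0 fell, with a median of 0.91. The shares over all genes were 3.05% called higher and 3.66% lower. Capg, which caps actin filaments, was at 227, 204, 150.3, 266 and 223 CPM in Ag and 25.1, 65.0, 20.5, 16.6 and 119.8 CPM in Naive, a log2 fold change of 2.12 ± 0.45 (SE, adjusted p = 0.0172), without overlap, and lost its call without Naive 1 or Naive 3 (adjusted p up to 0.0556). S100a13 was called in all 10 fits (0.87 ± 0.17). The larger differences of S100a4 (1.94 ± 0.72) and S100a6 (1.88 ± 0.66) did not pass the test. From 1 gene without Naive 1 or Naive 3 to 15 genes without Naive 5 were called higher. Of 20 effector and memory transcription factors, Myb, Hopx and Batf rose and Zfp683, of HOBIT, fell (-1.38 ± 0.31), while Tbx21 (0.95 ± 0.47) and Eomes (0.69 ± 0.48) did not pass. The higher calls ranged from 0 genes without Ag 2, Naive 1, Naive 3 or Naive 4 to 9 without Naive 5.

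Of 18 adhesion and homing genes, Cxcr3 (1.55 ± 0.43), the receptor for interferon-induced chemokines, and Itgb7 (0.41 ± 0.11) rose, and 4 fell. Over all genes 3.05% were called higher and 3.66% lower. Itgae, of the integrin CD103, fell from 89.9, 71.3, 182, 161 and 26.5 CPM in Naive 1 to 5 to 23.7, 0.758, 9.15, 23.7 and 2.19 CPM in Ag 1 to 5, a log2 fold change of -3.16 ± 0.76 (SE, adjusted p = 0.0267). Cd69, an early activation antigen that antagonises S1PR1, was also lower, at 80.5, 61.8, 37.0, 75.9 and 29.7 CPM in Ag and 184, 147, 261, 231 and 63.1 CPM in Naive, a log2 fold change of -1.63 ± 0.36 (SE, adjusted p = 0.0188), and Cx3cr1 changed by -1.64 ± 0.46. The chemokine receptor Cxcr4 fell without overlap and in all 10 fits (-1.37 ± 0.23). Cd44, the usual surface marker of activated T cells, just missed the threshold, at 67.0, 104, 69.0, 74.7 and 58.6 CPM in Ag and 24.3, 41.8, 19.6, 20.98 and 71.1 CPM in Naive, a log2 fold change of 1.07 ± 0.31 (SE, adjusted p = 0.0511). Itgae was not called without Naive 1, Naive 3 or Naive 4, nor Cd69 without those or Ag 2, while Cxcr3 was called in 3 and Cx3cr1 in 2 of 10 fits (adjusted p up to 0.0744, 0.0597, 0.127 and 0.157). Of the list, 1 gene was lower and 0 higher without Naive 1, Naive 3 or Naive 4.

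**Figure D3:**
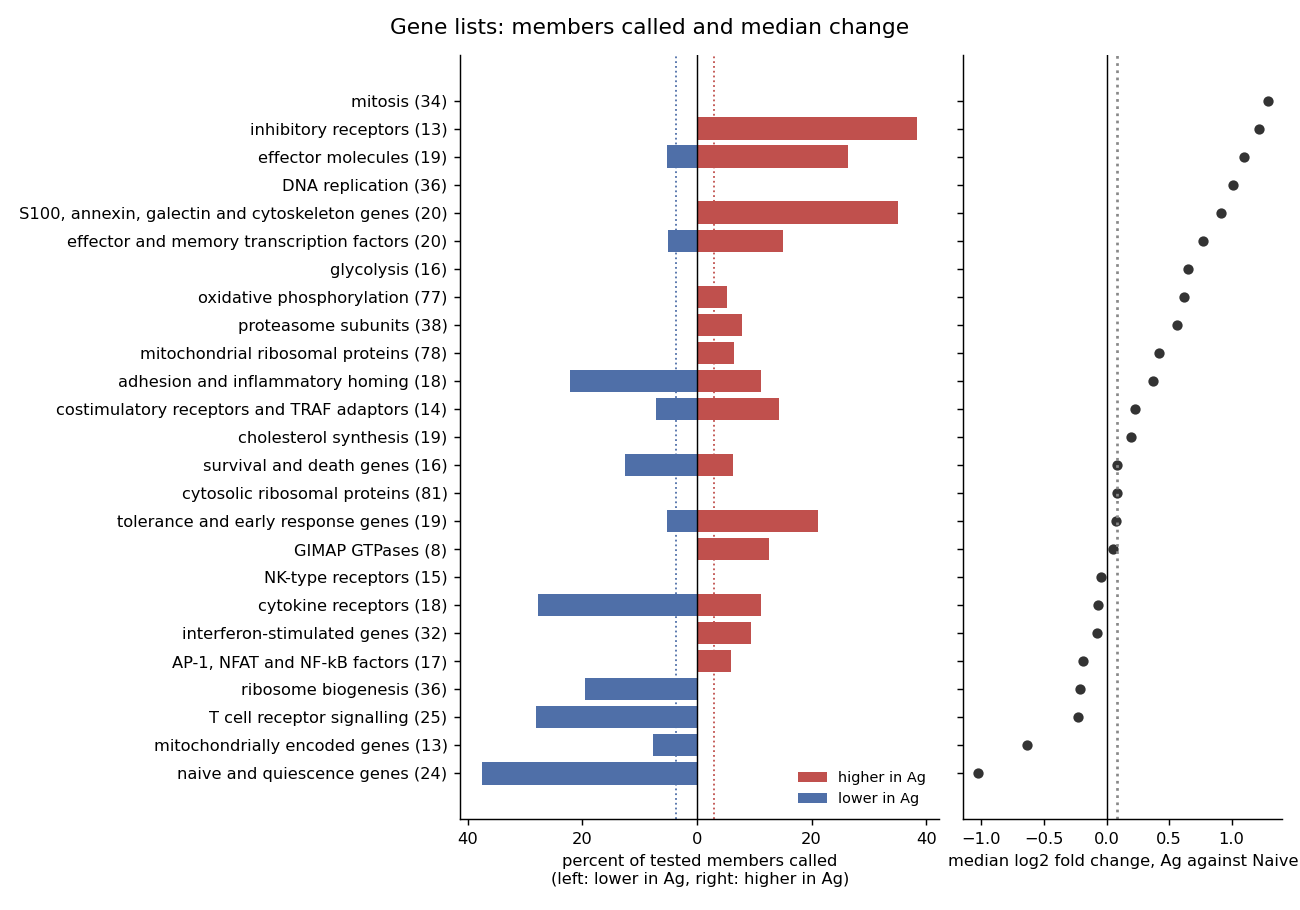
For each gene list, the percent of tested members called higher or lower in Ag (left, dotted lines at 3.05% higher and 3.66% lower for all genes) and the median log2 fold change (right, dotted line at 0.08). Naive and quiescence genes (9 of 24 lower) and inhibitory receptors (5 of 13 higher) lie far from the lines.

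Division genes differed widely between libraries of 1 group. By edgeR 0 of 36 DNA replication genes and 0 of 34 mitosis genes were called (3 and 1 at an unadjusted p under 0.05, 0 and 1 by DESeq2, 2 and 22 by voom with sample weights), although every gene of both lists had a positive log2 fold change, with medians of 1.01 and 1.29. The mean log2(CPM + 1) of the mitosis genes was 5.47, 7.999, 7.61, 5.45 and 7.90 in Ag 1 to 5 and 4.49, 6.24, 3.69, 3.57 and 7.61 in Naive 1 to 5. Ag 1 and Ag 4 lay below Naive 2, and Naive 5 lay at the level of Ag 3. Mki67, of the proliferation antigen Ki-67, was at 116, 388, 299.7, 111 and 206 CPM in Ag and 34.7, 103, 15.8, 16.6 and 334 CPM in Naive, a log2 fold change of 1.15 ± 0.70 (SE, adjusted p = 0.272). Mcm5, of the replicative helicase, was at 114, 774, 639.6, 117 and 932 CPM in Ag and 111, 277, 87.5, 74.7 and 676 CPM in Naive, a log2 fold change of 1.07 ± 0.66 (SE, adjusted p = 0.279). Without Naive 5, 34 of 34 mitosis and 27 of 36 replication genes were called higher, against 12.6% of all genes in that fit.

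**Figure D4:**
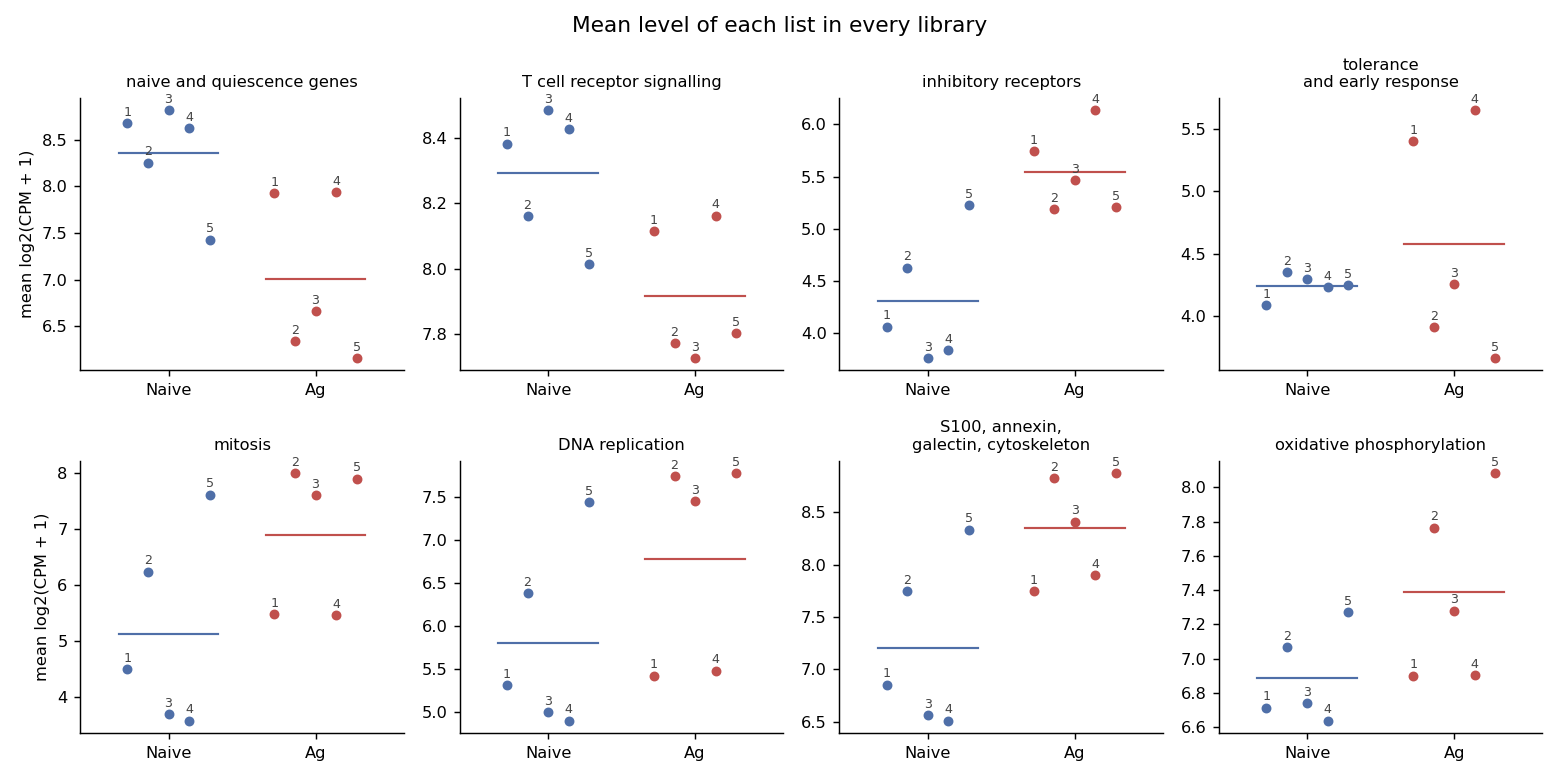
Mean log2(CPM + 1) of the members of 8 gene lists in each library; each point is 1 library labelled by its replicate number and the line is the group mean. Mitosis genes run from 5.45 to 7.999 in Ag and from 3.57 to 7.61 in Naive, whereas tolerance genes are highest in Ag 1 (5.40) and Ag 4 (5.65), where the mitosis genes are lowest among Ag libraries.

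The library order of the lists was not the same. For naive and quiescence genes the mean log2(CPM + 1) was 7.93, 6.34, 6.66, 7.94 and 6.16 in Ag 1 to 5 and 8.68, 8.26, 8.82, 8.62 and 7.43 in Naive 1 to 5. Inhibitory receptor genes had means of 5.75, 5.19, 5.47, 6.14 and 5.21 in Ag, with only Ag 2 and Ag 5 at or below Naive 5 (5.23), and 3.77 to 4.63 in Naive 1 to 4. Effector molecules were at 5.27, 6.18, 5.95, 5.49 and 6.32 in Ag and at 4.83, 5.60, 4.28, 4.81 and 5.89 in Naive. Ag 1 and Ag 4 thus had the higher naive, inhibitory and tolerance means among Ag libraries, and Ag 2, Ag 3 and Ag 5 the higher effector and division means. The input and the share of reads counted, given above, also differed between Ag libraries, and their part in this was not tested.

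Metabolic lists had few calls by edgeR, and some had many by other tools. Glycolysis (16 genes) and cholesterol synthesis (19 genes) had 0 calls by edgeR (8 and 3 at an unadjusted p under 0.05, 1 and 1 by DESeq2), with medians of 0.65 and 0.20, and without Naive 5 had 9 and 4 genes called higher. Of 77 nuclear genes of oxidative phosphorylation 4 rose and 0 fell, against 3.05% of all genes called higher, and 75 had a positive log2 fold change (median 0.62). At an unadjusted p under 0.05 there were 61, and DESeq2 called 33 and voom 23, all higher, as were the 23 called with the replicate block. The 4 genes included Ndufs8 of complex I (0.90 ± 0.23). The count ran from 0 without Ag 2, Ag 5, Naive 1, Naive 3 or Naive 4 to 44 without Naive 5. The 13 mitochondrially encoded genes all had a negative log2 fold change, with a median of -0.63. At an unadjusted p under 0.05 there were 12, DESeq2 called 10 lower, voom 12 and edgeR without Naive 5 called 9. With all libraries edgeR called 1, mt-Cytb (-0.68 ± 0.19), which was held in 3 of 10 fits and was not called without Ag 1, Ag 2, Ag 4, Ag 5, Naive 1, Naive 2 or Naive 4 (adjusted p up to 0.11). Genes of ribosome biogenesis fell where they moved: 7 of 36 were lower and 0 higher (median -0.21), against 3.66% of all genes called lower. The 7 included the RNA polymerase I subunits Polr1a (-0.95 ± 0.23) and Polr1b (-0.94 ± 0.21) and Utp20 of the small subunit processome (-1.04 ± 0.24). Without Naive 1, Naive 3 or Naive 4 none of the 36 was called, and without Naive 2 there were 10. The 81 cytosolic ribosomal protein genes had 0 calls by edgeR (10 at an unadjusted p under 0.05, 1 by DESeq2) and a median of 0.08, which was -0.02 when libraries were scaled by their totals. Of 78 mitochondrial ribosomal protein genes 5 rose (33 at an unadjusted p under 0.05, 14 by DESeq2), against 3.05% of all genes called higher. Of 38 proteasome genes 3 rose (23 at an unadjusted p under 0.05, 5 by DESeq2), led by the immunoproteasome subunits Psmb9 (0.95 ± 0.20) and Psmb8 (0.65 ± 0.18); neither list kept a call without Naive 1, Naive 3 or Naive 4.

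Calls among the transcription factors classically placed downstream of the receptor were few, as they were among all genes (6.71%). Of 17 AP-1, NFAT and NF-kB genes only Nfkb1 rose (0.55 ± 0.14) and 0 fell, with a median of -0.19, against 3.05% of all genes called higher. At an unadjusted p under 0.05 there were 4, and DESeq2 called 1 higher and 2 lower. The call of Nfkb1 was lost without Ag 2, Naive 1, Naive 3 or Naive 4 (adjusted p up to 0.0958). Interferon-stimulated genes had 3 of 32 members higher, Ifi27l2a with Psmb8 and Psmb9, against 3.05% of all genes called higher. Their median was -0.08, and none was called without Naive 1, Naive 3 or Naive 4. NK-type receptors had 0 of 15 called by edgeR (2 at an unadjusted p under 0.05, 1 by DESeq2) and a median of -0.04. Of 8 GIMAP GTPase genes, Gimap7 alone was called, against 6.71% of all genes.

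Markers of other cells were checked because sorted and purified cells were compared. B cell transcripts were higher in Ag: of 12 tested markers 7 rose and 0 fell, against 3.05% of all genes called higher, with a median of 3.92. Cd79a, of the B cell receptor complex, was at 29.0, 2.55, 106, 40.3 and 1.13 CPM in Ag and 1.67, 0.946, 0.746, 1.18 and 1.93 CPM in Naive, a log2 fold change of 4.78 ± 0.96 (SE, adjusted p = 0.0149), with Ag 5 within the Naive range. The 12 B cell markers other than Ighm summed to 325, 54.1, 945, 497 and 69.99 CPM in Ag 1 to 5 and to 59.6 to 91.7 CPM in Naive, so that Ag 2 lay just below and Ag 5 within the Naive range. Ag 2 and Ag 5 also had the lowest recorded input. The part of B cells in the differences described above was not tested. Cd79a was not called without Naive 3 (adjusted p = 0.052), and without Naive 1, Naive 3 or Naive 4 in turn 2, 1 and 2 markers of the list were called. The largest rises of the named genes were those of Fcmr (8.27 ± 1.41) and Iglc2 (7.63 ± 1.18). These and the immunoglobulin genes Iglc1 (6.03 ± 0.96), Iglc3 (5.70 ± 1.06) and Igkc (4.79 ± 0.94) were called in all 10 fits without overlap. Iglc2 was at 1.13 to 83.4 CPM in Ag and at most at 0.332 CPM in Naive. Fcrla and Iglv1, B cell genes with only 2 and 3 counts over all Naive libraries, had 202 and 292 counts in Ag, ratios per total count of 141 (95% exact interval 38.5 to 1170) and 136 (46.0 to 662).

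None of 5 tested erythroid markers was called by edgeR, DESeq2 or voom (0 at an unadjusted p under 0.05), and the list summed to 153, 31.6, 1317, 53.2 and 15.02 CPM in Ag 1 to 5 against 52.7 to 151 CPM in Naive, with Ag 3 far above. Myeloid markers summed to 87.9 to 240 CPM in Ag and to 17.5, 191, 42.1, 55.2 and 1018 CPM in Naive 1 to 5, and Cd68 was the 1 called of 13 (1.73 ± 0.44), lost without Ag 5, Naive 1, Naive 3 or Naive 4 (adjusted p up to 0.096). Of 8 NK cell markers only Cd160 rose, and Klrb1c, of the NK1.1 antigen, was at 0.413 to 14.4 CPM in Ag and 7.46 to 32.5 CPM in Naive. Of 4 tested CD4+ or regulatory T cell markers 0 were called by edgeR (2 at an unadjusted p under 0.05, 1 by DESeq2). The part of such cells in the differences above was not tested.

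Which transcripts a gene used was compared from the transcript counts. Of 7501 genes with at least 2 tested transcripts, 41 (0.547%) were called with a change of share of at least 0.1, and 22 of these were called in every fit that left out 1 library. The leading transcript rose in share for 20 and fell for 21, and it was protein-coding in 35 and a nonsense-mediated decay target in 5. In 40 of 41 genes it was at 0 in at least 1 library, and in 6 genes the shares did not overlap between groups. Short reads from 1 end cover few of the junctions that separate transcripts, and the part of count apportioning in shares of 0 was not tested. Calls numbered 4 with only the 10 libraries, 123 with limma's diffSplice (2 of the 41 among them) and 19 with a replicate block.

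Ptprc, the gene of the phosphatase CD45 (chr1, minus strand), had the lowest adjusted p of these genes (5.68e-06) and was called in 9 of 10 fits. Naive T cells are known to carry long CD45 isoforms with the variable exons A, B and C, and activated cells the short form RO without them. The junctions after the last shared exon are given for the 3 transcripts that moved most; capitals mark the first bases of the exon that follows, at chr1:138122456-138122584 (129 bases, exon A) in Ptprc-207, chr1:138116954-138117025 (72 bases) in Ptprc-203 and chr1:138115619-138115642 (24 bases) in Ptprc-204 (GENCODE M21, GRCm38).
Ptprc-207: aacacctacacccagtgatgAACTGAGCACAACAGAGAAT
Ptprc-203: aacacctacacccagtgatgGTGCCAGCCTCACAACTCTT
Ptprc-204: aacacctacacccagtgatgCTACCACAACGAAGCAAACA

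Ptprc-203 skips 3 exons of 129, 147 and 141 bases that Ptprc-207 holds, besides differences at the transcript ends, and Ptprc-204 skips the 72-base exon as well. Ptprc-207 made up 0.0929, 0.0257, 0.0326, 0.185 and 0.151 of the gene's counts in Ag 1 to 5 and 0.389, 0.213, 0.364, 0.256 and 0.343 in Naive 1 to 5, a lower share in every Ag library, although the transcript's own test did not pass (adjusted p = 0.204). The shares of Ptprc-203 were 0.307, 0.137, 0.240, 0.162 and 0.363 in Ag and 0.0889, 0.162, 0.125, 0.143 and 0.156 in Naive, higher than every Naive library in Ag 1, Ag 3 and Ag 5. Ptprc-204, the transcript called, was at 0.0236, 0.391, 0.303, 0.0261 and 0.0171 in Ag and 0.00494, 0.0124, 0.00735, 0.00732 and 0.0131 in Naive, above every Naive library in each Ag library but largely in Ag 2 and Ag 3. The gene had 7269 to 28990 counts in Ag and 24351 to 71172 in Naive.

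**Figure D5:**
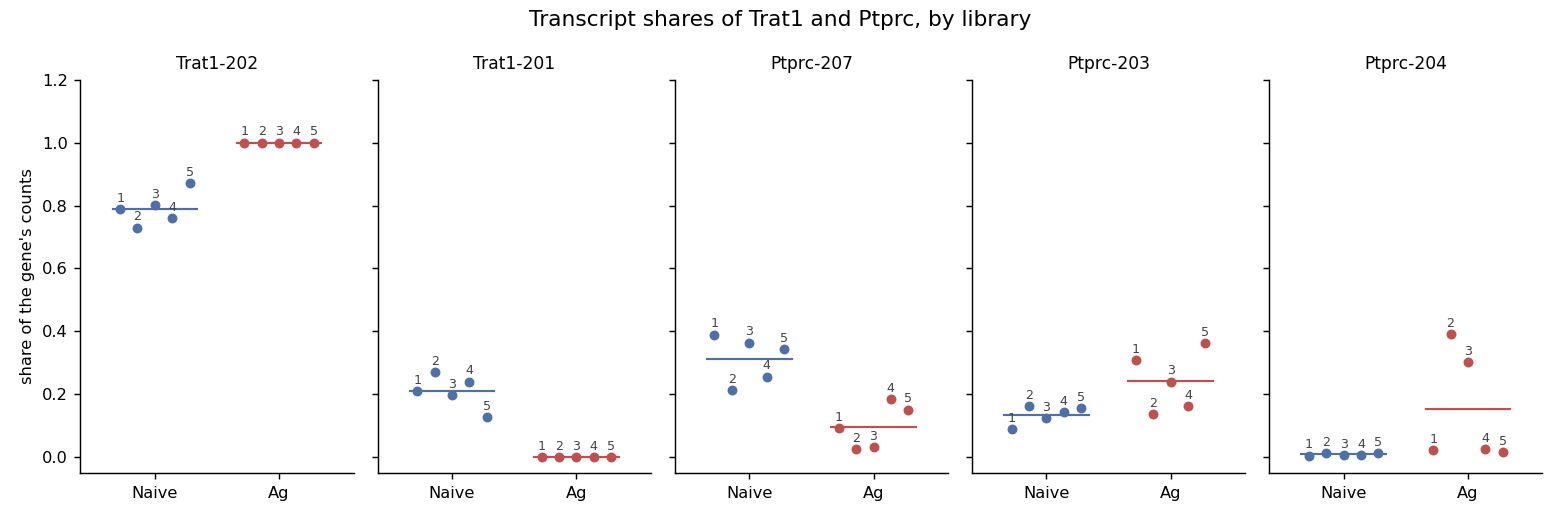
Share of the gene's estimated counts held by transcripts of Trat1 and Ptprc in each library; points are libraries labelled by replicate number and lines are group means. Trat1-201 is at 0 in the Ag libraries and at 0.128 to 0.270 in Naive, and Ptprc-207 is at 0.026 to 0.185 in Ag and 0.213 to 0.389 in Naive.

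Other called genes had a transcript listed at 0 in every library of a group, or nearly so. Kcna2-203, of a voltage-gated potassium channel, held 0.261, 0.292, 0.306, 0.465 and 0.563 of its gene's counts in Naive 1 to 5 and 0 in each Ag library, from a gene with means of 45.6 counts in Ag and 379 in Naive. Il18-203, of interleukin 18, held 0.179, 0.391, 0.271, 0.223 and 0.205 in Ag 1 to 5 and 0 in Naive, where the gene had a mean of 32.6 counts. Il4ra-205, a decay target of the interleukin 4 receptor gene that also fell in level, was at 0.462, 0, 0.274, 0.309 and 0.291 in Naive and at most at 0.00412 in Ag (Simes-adjusted p = 0.00552). All 3 were called in at least 9 of 10 fits. Of the 15 tested genes named whatever their values, Ptprc alone was called, and the largest other difference, of Il7r-201, had shares of 0.342, 0.341, 0.355, 0.579 and 0.379 in Ag and 0.105, 0.130, 0.112, 0.103 and 0.138 in Naive with a gene-level adjusted p of 0.529.

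Over whole libraries, the summed share of transcripts annotated as retained introns was 4.49% ± 1.62 (SD, n = 5) of counts in Ag and 6.35% ± 1.83 in Naive, and that of nonsense-mediated decay targets 1.58% ± 0.293 and 2.103% ± 0.471. Exact two-sided permutation tests gave p = 0.119 and p = 0.0714, each 0.208 after adjustment over the 7 shares compared. Counts from mitochondrially encoded genes made up 1.58% ± 0.197 in Ag and 2.45% ± 0.868 in Naive (exact permutation p = 0.0714, adjusted 0.208). The transgenic Trbv12 family held 99.3% ± 0.644 of beta variable counts in Ag and 99.8% ± 0.108 in Naive (exact permutation p = 0.103, adjusted 0.208). The other 3 shares (Trav14, immunoglobulin genes and cytosolic ribosomal proteins) had adjusted p from 0.344 to 0.984.

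The calls were carried by all Ag libraries, to unequal degrees. Of the 529 genes called higher, 76.7%, 87.7%, 83.2%, 85.1% and 87.9% were above every Naive library in Ag 1 to 5. Of the 636 called lower, 67.6%, 92.9%, 85.7%, 68.1% and 92.5% were below every Naive library. Naive 5 was the library closest to Ag: it exceeded every Ag library for 52.4% of the 636 genes, against 89.3% to 99.7% for Naive 1 to 4, and lay below every Ag library for 51.6% of the 529, against 82.6% to 94.7%. Since these genes were called on the same libraries, the percentages describe how the calls were shared out and are no further test.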

How the data were processed

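RNA of sorted or purified CD8+ T cells was amplified with SMART-Seq v4, made into Nextera XT libraries and read without strand as single reads, of 50 bases per the labels, whereas the study's methods give a longer read. Per the submitters' processing notes, the authors aligned reads with HISAT2 2.1.0 to mm10 and ran StringTie 2.1.0, and the deposited gene and transcript tables hold estimated counts from it, rounded to integers and without normalisation. The read-length setting that turned coverage into counts and the annotation release were not given in the sources used here. The deposited core table gives sequenced reads as counts and read shares in percent. A deposited FPKM table was not used, because its columns of Ag 1 and Naive 5 were identical.

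Of 81881 gene entries, 55536 matched GENCODE M21 (GRCm38) by identifier. The others, 26248 named by a number alone and 97 spike-ins, held 0.0818% of counts and stayed out of library sizes and tests. Of 168207 transcript entries 141862 matched. No 2 libraries of a group were alike within sampling noise (lowest chi-square per degree of freedom 8.70). The labels do not say that libraries came from separate animals, although the study's methods speak of biological replicates. Total counts of 4865952 to 25280667 set the precision of low values, and intervals and limits for 0 counts (3 counts) cover counting error only, as reads carry no molecular identifiers.

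Genes kept by filterByExpr were tested with edgeR 4.0.16 (R 4.3.3) after TMM scaling, by robust quasi-likelihood F tests with 1 coefficient per group over all 15 libraries. The common biological coefficient of variation was 0.431. Transcript usage was tested with diffSpliceDGE, and calls needed a Simes-adjusted p under 0.05 for the gene together with 1 transcript past 0.05 that shifted by 0.1 or more as a fraction of its gene. Shares of libraries were compared by exact permutation tests, and 95% exact intervals are given for ratios on few counts. The main fit did not treat replicate numbers as pairs. Recorded sex had the same order over the numbers in each group, and whether the numbers pair the libraries is not known.

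Named genes were the 12 highest and 12 lowest called genes without overlap and with at least 5 CPM in the higher group, the 12 highest and 12 lowest called in all 10 fits that left out 1 library with at least 20 CPM, up to 4 called members of each list, 33 genes kept whatever their values, the 8 largest usage changes with at least 100 counts and 16 further genes for usage. Other list members, and the other usage examples, were picked after their values were seen. The members and the 25 gene and 10 marker lists were chosen with earlier results of these data known. Platelet markers had 0 genes tested and stromal markers 1, which was not called. The symbols Cd244 and Ahsp of the lists were not matched. Values of some named genes are not reported here.

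On simulated counts for Ag against Naive over 17152 genes, the test recovered 95% of 2-fold and 100% of 4-fold changes. It called 0.0708% of unchanged genes, and the usage test over 7329 genes recovered 100% and called 0.379%. The simulated gene counts spread less than the data, whose common coefficient of variation was 0.431, and no simulated library stood apart. The recovered percents are therefore no measure of power in these libraries. Alternatives were other size factors, library totals, DESeq2 1.42.0, limma 3.58.1 (voom with sample weights, diffSplice), no filter, the 10 libraries alone, terms for lane, recorded sex and replicate number, each library left out and, added after seeing the data, Ag 3 and Naive 5 left out together.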

Additional observations from a re-analysis of the deposited data

Results flagged for a closer look

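Of 154 groups of 5 libraries checked for a library far from the others, 7 held one, where chance gives about 1 in 20 groups (7.7). Ag 3 was the highest Ag library in the mean log2(CPM + 1) of the mitochondrially encoded genes, at 9.69, and in that of the NK cell markers, at 4.63. Ag 3 was also the lowest in the Trav14 share of alpha variable segment counts, at 67.4%. Naive 5 was the lowest Naive library for Il7r, at a log2(CPM + 1) of 7.90, and the highest for Il2rb, at 9.99. Ag 1 was the lowest Ag library for Il2rb, at 9.66, and Naive 2 the lowest Naive library for Ikzf1, at 7.61. Among the entries that match no annotated gene, which entered no comparison, Ag 3 held 0.410% of its counts, above every Naive library.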

How the results depend on the processing

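The 1165 calls (529 higher, 636 lower) became 2778 (1281 and 1497) with DESeq2, 4020 (1873 and 2147) with voom and sample weights, 208 (49 and 159) without a filter, 6 (0 and 6) with only the 10 libraries, 0 (0 and 0) by edgeR with a lane term (1285 at an unadjusted p under 0.05), and, chosen after seeing the data, 3945 (2618 and 1327) without both Ag 3 and Naive 5. DESeq2 kept 1139 of the 1165. Leaving out 1 library gave 255 (Naive 1) to 3871 (Naive 5) calls, 92 to 2270 higher and 163 to 1601 lower, and 692 to 2349 genes without overlap. Usage calls (41) became 94 without a minimum change, 236 without a filter, 4 with only the 10 libraries, 123 with limma and 19 with a replicate block, and 46 to 84 with 1 library left out. The cause was not tested.

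Same-numbered libraries deviated with correlations of 0.42, -0.12, -0.32, 0.47 and 0.41, and 4 of 10 libraries correlated best with their own number. The replicate block gave 1660 gene calls, 1024 of them shared. Of 106 called named genes, DESeq2 kept 106, voom 104, the block 97, no filter 44, the 10 libraries 4, the lane term 0, and leaving out 1 library 45 to 106.

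Among genes and shares, signs turned for uncalled values only. With voom, Gzmb was at -0.988, Gzma at -1.80, Id2 at -0.0249, Il2ra at -1.08 and Cd3e at 0.0681. Egr2 was at -0.0397 with the lane term and -0.0816 with the block, and ran from -0.118 (without Ag 4) to 0.961 with 1 library left out, and Cd3e from -0.260 to 0.00300 (without Ag 3). Differences of shares in percentage points with 1 library left out ran from -7.93 to 0.0402 for Trav14 (positive without Ag 3), -0.143 to 0.184 for cytosolic ribosomal proteins (positive without Ag 3, Ag 4, Naive 1 or Naive 2), -0.657 to -0.258 for Trbv12, 0.0148 to 0.0443 for immunoglobulin genes, -1.08 to -0.548 for mitochondrially encoded genes, -0.684 to -0.378 for decay targets and -2.51 to -1.36 for retained introns. Some small list medians also turned sign. Over all settings they ran from -0.12 (without Ag 4) to 0.56 for tolerance genes, -0.37 to 0.03 (without Ag 1) for cytokine receptors, -0.74 to 0.49 (without Naive 2) for NK-type receptors, -0.52 to 0.24 (voom) for interferon-stimulated genes, -0.27 to 0.05 (voom) for AP-1, NFAT and NF-kB factors, -0.03 (voom) to 0.40 for cholesterol synthesis and -0.03 (without Ag 5) to 0.20 for cytosolic ribosomal proteins. The median of the tested erythroid markers was 1.69, and -0.54 without Ag 3. With 34 to 103 Trat1 counts in Ag, depth limits shares of low genes.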

Other observations

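Placed beside the other groups, the Ag libraries held some levels that Ag+Costim libraries did not. The mean log2(CPM + 1) of the tolerance and early response genes was 3.66 to 5.65 in Ag, 3.84 to 4.28 in Ag+Costim and 4.08 to 4.35 in Naive. For the mitosis genes it was 5.45 to 7.999 in Ag, 7.96 to 8.22 in Ag+Costim and 3.57 to 7.61 in Naive, and for the naive and quiescence genes 6.16 to 7.94, 5.88 to 6.48 and 7.43 to 8.82. The spread of each list was wider in Ag than in Ag+Costim. These values share the Ag libraries with the comparison above, and the differences from Ag+Costim were not tested.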
